A study of Mus musculus with 16 samples.

Results

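The genes of the p53 pathway and of apoptosis were examined in mouse primary hepatocytes exposed to palmitic acid, as 32 transcripts chosen by name: 10 for p53 and its targets, 4 for death receptors, 11 for the BCL2 family and 7 for caspases and their regulators. All 32 had a row in the deposited table of 55416 gene IDs, and 30 of them passed the filter on low values (at least 1 TPM, a length-corrected relative transcript abundance, in at least 4 of the 16 samples), as did 11858 genes in all. Pmaip1 and Bcl2 did not.

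Primary hepatocytes are liver cells taken from the animal and held in short culture. The samples fell into 4 groups of 4. Cells with hepatocyte deletion of Smpd3 (HKO, genotype Alb-cre+) and cells without Cre (FLOX, genotype Alb-cre-) each received 0.4 mM palmitic acid (PA), a saturated fatty acid, or vehicle, for 24 h. Smpd3 encodes neutral sphingomyelinase 2, which splits sphingomyelin into ceramide and phosphocholine. Cre in this design was driven by the albumin promoter, so deletion was limited to cells that had expressed albumin. FLOX names the cells as floxed, and the labels used here give no age, sex or strain, nor whether replicates came from separate mice or cultures. The p-values below are thus set by how far the samples scatter within their groups of 4, and that scatter may be technical. In the main fit, the scatter of a gene is pooled over all 4 groups. Samples of FLOX cells therefore also bear on p-values in HKO cells, and the reverse.

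As background, p53 (Trp53) is a transcription factor kept low by the ubiquitin ligase Mdm2, which is itself a p53 target. Its other targets include brakes on the cell cycle and genes of cell death. Death receptors at the cell surface activate caspase-8, and decoy receptors bind the same ligand without passing on a death signal. Within the cell, the BCL2 family sets whether mitochondria release cytochrome c, which joins Apaf1 and caspase-9 and so switches on the executioner caspases. In hepatocytes, saturated fatty acids are known to cause death by these routes, often called lipoapoptosis, and the stress factor CHOP (Ddit3) is one known inducer of the receptor Tnfrsf10b and of the BCL2 family members Bbc3 and Bcl2l11.

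Because p53 binds DNA at pairs of a 10-base half-site, the promoters of the genes were searched for it. Windows of 300 bases (250 before to 50 after a start site; RefSeq, GRCm38.p6) were available for 27 of the 32 genes, 37 windows in all. An exact match to the p53 half-site consensus, which equals its own reverse complement and so covers both strands, was present in 7 of the 37 windows (18.9%), and in 8.36% of all 32851 promoter windows of the table. Of the 11 windows of the p53 group, 6 held one. One match of each of the 7 genes is shown, so that the sequence behind these counts can be read; Phlda3, Btg2 and Gadd45b, described below, had none in their windows. Capitals mark the matched 10 bases, and each stretch reads 5′ to 3′ on the gene's strand. The Cdkn1a stretch lies at chr17:29090908-29090957 (+), with its match 51 bases upstream of the start, and a further match stood 73 bases upstream in the same window. The Ccng1 stretch lies at chr11:40755442-40755491 (-), the Mdm2 stretch at chr10:117710915-117710964 (-), the Gadd45a stretch at chr6:67037418-67037467 (-), the Sesn1 stretch at chr10:41887246-41887295 (+), the Trp53 stretch at chr11:69580264-69580313 (+) and the Bax stretch at chr7:45467070-45467119 (-).
Cdkn1a: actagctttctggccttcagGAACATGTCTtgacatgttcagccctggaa
Ccng1: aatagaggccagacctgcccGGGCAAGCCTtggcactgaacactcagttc
Mdm2: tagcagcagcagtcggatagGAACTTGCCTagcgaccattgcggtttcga
Gadd45a: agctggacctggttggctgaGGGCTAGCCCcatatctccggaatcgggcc
Sesn1: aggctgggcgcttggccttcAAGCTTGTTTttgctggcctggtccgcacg
Trp53: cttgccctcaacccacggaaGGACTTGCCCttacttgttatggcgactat
Bax: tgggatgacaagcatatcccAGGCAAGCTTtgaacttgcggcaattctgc

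In Cdkn1a the 10 bases after the capitals match the consensus at 9 of 10 positions, and in Ccng1 the 10 bases before them do. A pair of abutting half-sites with at most 1 mismatch over 20 bases was found in these 2 genes and in 29 of all windows (0.0883%). The Cdkn1a window belongs to the upstream of 2 listed start sites, which lie 2790 bases apart. A match describes letters only, and binding was not measured. After the sequences had been seen, the cyclic AMP response element TGACGTCA, its own reverse complement, was also searched. It was present in 1 of the 37 windows, that of Btg2, at chr1:134079294-134079341 (-), and in 1.79% of all windows. It is shown because Btg2 was among the genes that rose most in the p53 group, a choice made from these data. Any part of this element in that rise was not tested.
Btg2: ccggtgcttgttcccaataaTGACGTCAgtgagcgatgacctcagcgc

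Between 11231 and 11498 genes reached 1 TPM in each sample. TPM keeps no read depth, so the depth behind each value is unknown. Smpd3 averaged 7.82 TPM in HKO cells with PA and 5.29 TPM in HKO cells with vehicle, against 46.0 TPM in FLOX cells with PA and 31.98 TPM in FLOX cells with vehicle. Hepatocyte markers summed to 33787 to 34519 TPM in HKO cells with PA and 41252 to 42942 TPM with vehicle, and to 33747 to 35268 TPM in FLOX cells with PA and 41689 to 42950 TPM with vehicle. All 6 leukocyte markers and all 6 stellate cell markers were below the filter. Replicate 1 of FLOX with PA and replicate 1 of FLOX with vehicle lay at opposite ends of the third principal component (7.53% of the variance), and results that rest on them are also given without them. In bulk samples, fewer cells of a type and less RNA per cell cannot be told apart.

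PA raised 18 of the 30 tested genes in HKO cells and lowered 3, and raised 14 and lowered 2 in FLOX cells. All 14 that rose in FLOX cells also rose in HKO cells: Trp53, Mdm2, Cdkn1a, Ccng1, Btg2, Phlda3 and Gadd45a of the p53 group, Tnfrsf10b, Tnfrsf22 and Tnfrsf23 of the death receptors, the survival gene Mcl1, and Apaf1, Casp8 and Cflar of the caspase group. Gadd45b and Sesn1 fell in both genotypes. Calls are genes with a Benjamini-Hochberg adjusted p below 0.05 over all tested genes, from limma on log2(TPM + 1), on which all log2 fold changes are given. PA moved much of the transcriptome, so the counts stand beside wide backgrounds. In HKO cells 29.4% of all tested genes were called higher and 13.1% lower, and in FLOX cells 23.0% higher and 11.5% lower. The members were chosen with earlier results of these data known, so a larger share among them is no separate support. The median log2 fold change was 0.27 over the tested members and 0.11 over all genes in HKO cells, and 0.14 over the members and 0.096 over all genes in FLOX cells.

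Scaling bears on the smaller changes. Median-ratio scaling moved the median of all genes to 0.0050 in HKO cells and 0.0053 in FLOX cells. It took the share of higher calls among all calls to 46.9% in HKO cells, against 69.3% without it, and to 44.8% in FLOX cells, against 66.7% without it. Under it 15 members were higher and 3 lower in HKO cells, and 11 higher and 4 lower in FLOX cells. The changes of Btg2, Phlda3, Gadd45a, Trp53, Mdm2, Ccng1, Tnfrsf22, Tnfrsf23, Mcl1, Cflar, Gadd45b and Sesn1 remained past the threshold in both genotypes under median-ratio scaling and under quantile normalization.

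**Figure D1:**
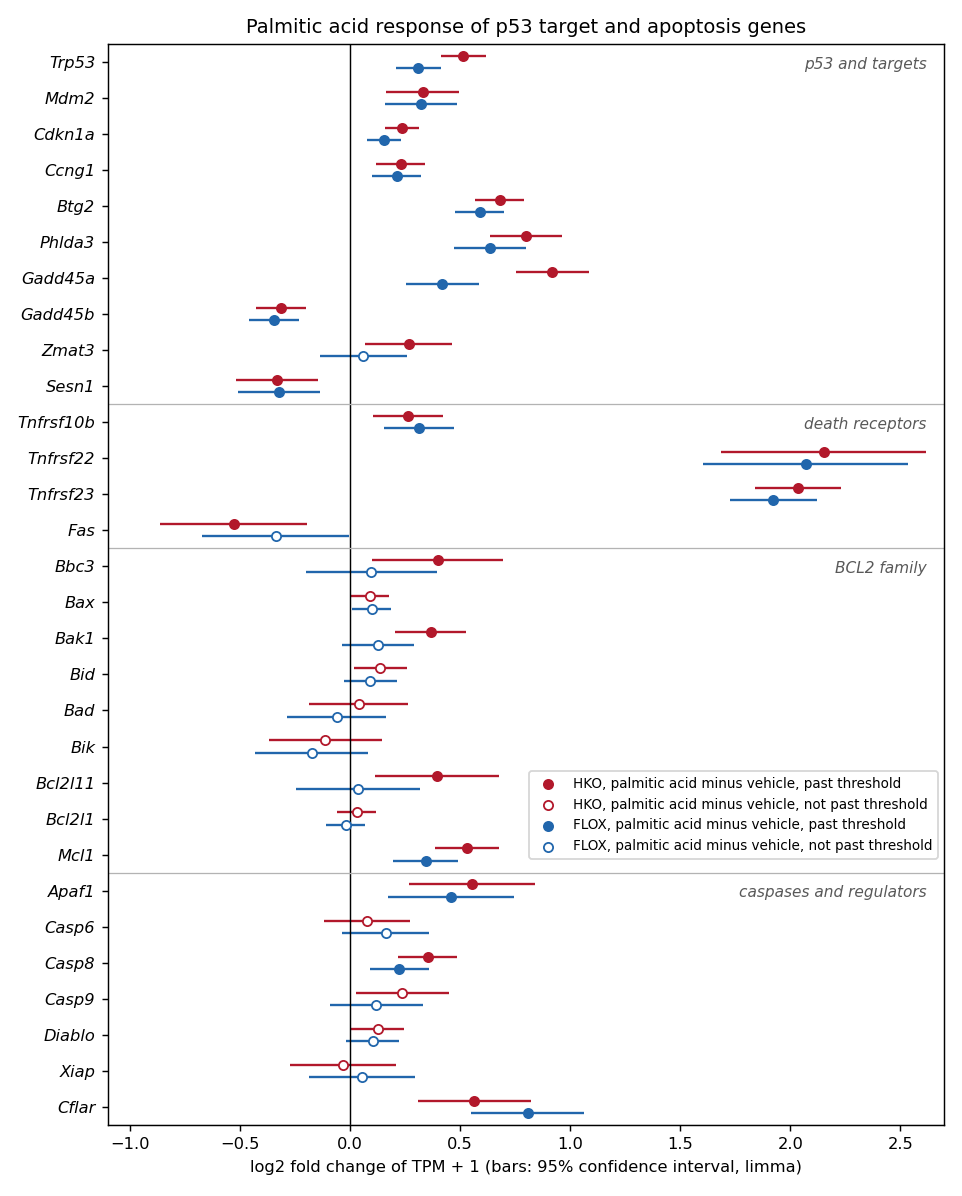
Log2 fold change of TPM + 1, palmitic acid minus vehicle, for the 30 tested genes in HKO cells (red) and FLOX cells (blue), with 95% confidence intervals from limma (4 samples per group). Filled points passed an adjusted p of 0.05. Tnfrsf22 and Tnfrsf23 stand near 2 in both genotypes, and the other genes lie between -0.53 (Fas in HKO cells) and 0.92 (Gadd45a in HKO cells).

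The death receptors held the largest changes of all 32 genes. Tnfrsf22 and Tnfrsf23 encode mouse decoy receptors for the death ligand TRAIL. Tnfrsf23 measured 44.39, 52.37, 52.82 and 55.87 TPM in HKO cells with PA, against 11.75, 10.97, 12.38 and 11.89 TPM in HKO cells with vehicle. It measured 35.66, 47.57, 47.11 and 44.20 TPM in FLOX cells with PA, against 12.13, 10.42, 10.85 and 9.56 TPM in FLOX cells with vehicle. Every PA sample was above every vehicle sample, and replicate 1 was the lowest PA sample of each genotype. The rise was 4.37-fold in mean TPM in HKO cells (log2 fold change 2.03 ± 0.093 SE, adjusted p = 1.55e-10) and 4.06-fold in FLOX cells (1.92 ± 0.093, adjusted p = 4.85e-10).

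Tnfrsf22 measured 29.82, 31.49, 26.76 and 30.11 TPM in HKO cells with PA, against 4.08, 7.94, 4.91 and 7.25 TPM in HKO cells with vehicle. In FLOX cells it measured 20.25, 23.36, 23.89 and 23.00 TPM with PA, against 4.18, 8.75, 3.86 and 3.06 TPM with vehicle. The groups did not overlap in either genotype. The log2 fold change was 2.15 ± 0.22 in HKO cells (adjusted p = 1.3e-06) and 2.07 ± 0.22 in FLOX cells (adjusted p = 2.77e-06). By the size of the log2 fold change, Tnfrsf22 ranked 26 and Tnfrsf23 ranked 31 of 11858 genes in HKO cells, and they ranked 25 and 34 in FLOX cells. The genes are near copies of each other: 27.4% of the 50-base stretches of Tnfrsf22 transcripts occur in another gene, most of them in Tnfrsf23, and 18.01% of those of Tnfrsf23 occur in Tnfrsf22 (GENCODE vM21). How the reads were divided between them is therefore uncertain. The sum of both genes is not free of this uncertainty. TPM is per length, and some of the shared stretches of Tnfrsf22 occur in genes other than Tnfrsf23. The sum averaged 80.9 ± 5.2 TPM in HKO cells with PA and 17.8 ± 1.5 TPM with vehicle. In FLOX cells it averaged 66.3 ± 7.1 TPM with PA and 15.7 ± 2.8 TPM with vehicle (SD, n = 4 each).

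Tnfrsf10b encodes the mouse TRAIL receptor that passes on the death signal. It averaged 8.01 TPM with PA and 6.50 TPM with vehicle in HKO cells, and 8.11 TPM with PA and 6.33 TPM with vehicle in FLOX cells. It rose by 0.26 ± 0.075 in HKO cells (adjusted p = 0.00958) and by 0.31 ± 0.075 in FLOX cells (adjusted p = 0.00421). The HKO call was lost under median-ratio scaling (adjusted p = 0.0665) and quantile normalization (0.0851). In TPM, which is per length, both decoy transcripts together stood at 10.1 times the level of Tnfrsf10b in HKO cells with PA and 2.74 times in HKO cells with vehicle. The same ratio was 8.17 in FLOX cells with PA and 2.50 in FLOX cells with vehicle. It was higher in all 8 PA samples than in all 8 vehicle samples.

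Fas, the receptor for Fas ligand and a p53 target in other settings, moved the other way. It measured 2.83, 4.08, 4.41 and 3.88 TPM in HKO cells with PA, against 3.95, 7.10, 6.99 and 5.94 TPM in HKO cells with vehicle. Replicate 1 was the lowest sample of both HKO groups, and its vehicle value lay within the PA range, so the groups overlapped. Fas fell by 0.53 on the log2 scale in HKO cells (SE 0.16, adjusted p = 0.013). In FLOX cells it averaged 4.12 TPM with PA and 5.52 TPM with vehicle and was not called (adjusted p = 0.109). It was called lower there too under median-ratio scaling (adjusted p = 0.0427) and quantile normalization (0.0326).

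**Figure D2:**
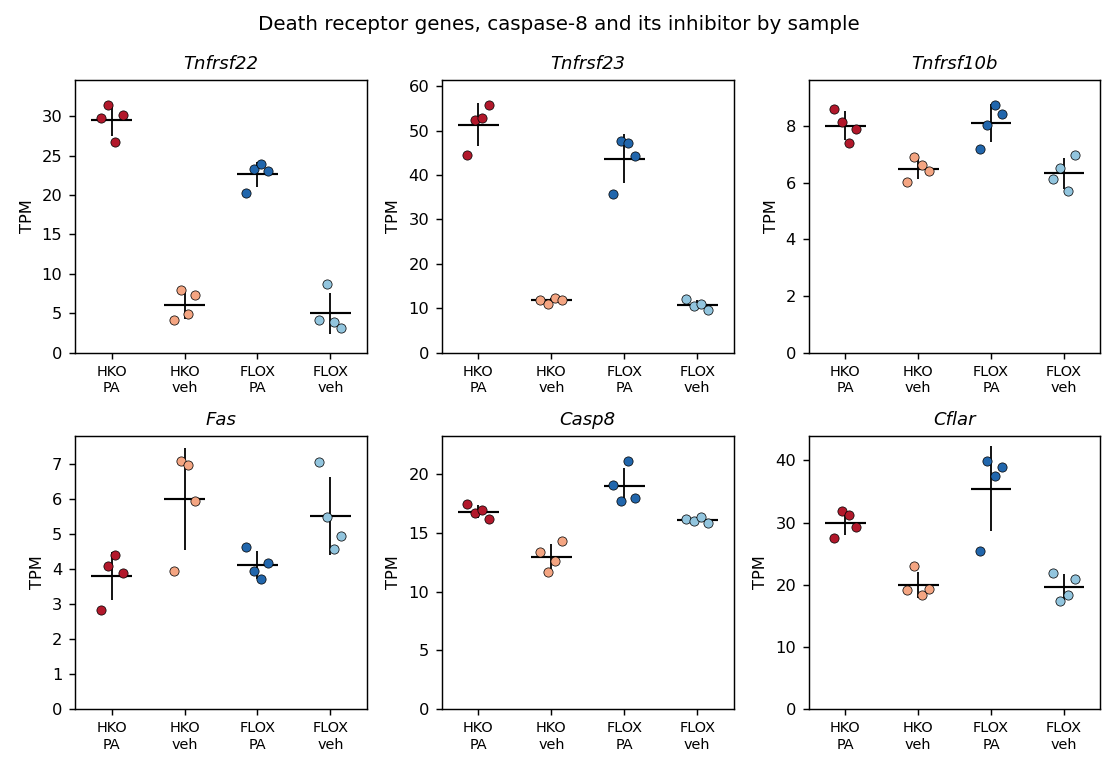
TPM of 4 death receptor genes, Casp8 and Cflar in each sample, by group (PA, palmitic acid; veh, vehicle). Points are samples in replicate order, horizontal lines group means and vertical lines the SD. Tnfrsf22 and Tnfrsf23 with PA lie far above vehicle in both genotypes, and replicate 1 of FLOX with PA (25.42 TPM) lies below the other 3 samples of its group for Cflar.

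Further genes of death receptor signalling were called higher with PA for 4 of 6 tested in HKO cells, beside 29.4% of all genes. In FLOX cells 2 of 6 were, beside 23.0%, and none was lower in either genotype. Under both scalings 2 were higher and 1 lower in HKO cells, and 1 higher and 1 lower in FLOX cells. Tradd, an adaptor of the TNF receptor, rose by 0.39 ± 0.058 in HKO cells (adjusted p = 6.95e-05) and by 0.24 ± 0.058 in FLOX cells (adjusted p = 0.00491), where the call was lost under both scalings. Tnfrsf1b, the second TNF receptor, rose by 0.33 ± 0.10 in HKO cells (adjusted p = 0.017) and 0.38 ± 0.10 in FLOX cells (adjusted p = 0.0101). The HKO call was lost without replicate 2 with PA (adjusted p = 0.0568) or replicate 1 with vehicle (0.057). The ligand genes Tnfsf10 (TRAIL) and Fasl were below the filter.

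In the p53 group, 8 of 10 genes were higher and 2 lower with PA in HKO cells, and 7 were higher and 2 lower in FLOX cells. Beside them, 29.4% of all tested genes were higher and 13.1% lower in HKO cells, and 23.0% and 11.5% in FLOX cells. The group was chosen with earlier results of these data known, so its larger share is no separate support. Trp53 itself measured 69.53, 63.87, 64.58 and 58.70 TPM in HKO cells with PA, against 45.83, 43.99, 42.48 and 46.00 TPM with vehicle. The FLOX samples measured 67.51, 64.45, 61.38 and 64.07 TPM with PA, against 52.84, 50.45, 51.91 and 51.66 TPM with vehicle. All PA samples lay above all vehicle samples, and the HKO vehicle samples were the lowest of the 16. The log2 fold change was 0.51 ± 0.048 in HKO cells (adjusted p = 5.28e-07) and 0.31 ± 0.048 in FLOX cells (adjusted p = 1.31e-04). Transcript level does not measure the p53 protein, which is controlled mainly by its stability. A processed pseudogene, Trp53-ps, shares part of the 3.88% of Trp53 50-base stretches that occur elsewhere.

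Phlda3, a p53 target that restrains the kinase Akt, measured 19.90, 20.43, 16.34 and 17.13 TPM in HKO cells with PA, against 9.98, 9.92, 10.39 and 10.28 TPM with vehicle. FLOX cells held 24.98, 23.02, 20.55 and 22.35 TPM with PA, against 15.96, 13.38, 13.97 and 13.72 TPM with vehicle. PA and vehicle samples were fully apart in both genotypes, and each FLOX group lay above the HKO group of the same treatment. Phlda3 rose by 0.80 ± 0.077 in HKO cells (adjusted p = 7.58e-07) and 0.64 ± 0.077 in FLOX cells (adjusted p = 1.17e-05).

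Gadd45a, a stress sensor linked to growth arrest and DNA repair, measured 101.31, 97.88, 92.99 and 129.54 TPM in HKO cells with PA, against 57.48, 53.87, 51.73 and 56.32 TPM with vehicle. In FLOX cells it measured 78.41, 82.96, 85.18 and 81.54 TPM with PA, against 62.20, 63.49, 61.51 and 57.13 TPM with vehicle. Replicate 4 of HKO with PA was the highest of all, and the other 3 samples of that group also lay above every FLOX sample. The rise was 1.92-fold in mean TPM in HKO cells (log2 fold change 0.92 ± 0.078, adjusted p = 1.8e-07) and 1.34-fold in FLOX cells (0.42 ± 0.078, adjusted p = 6.43e-04).

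Btg2, an antiproliferative p53 target, measured 45.70, 45.58, 43.37 and 48.75 TPM in HKO cells with PA, against 27.38, 28.05, 28.12 and 29.36 TPM with vehicle. The FLOX samples measured 41.06, 48.12, 41.41 and 45.28 TPM with PA, against 29.42, 29.24, 27.84 and 28.80 TPM with vehicle. The vehicle samples of both genotypes lay close together and far below the PA samples. Btg2 rose by 0.68 ± 0.052 in HKO cells (adjusted p = 5.96e-08) and by 0.59 ± 0.052 in FLOX cells (adjusted p = 4.1e-07).

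Cdkn1a, the cyclin-dependent kinase inhibitor p21 and the most abundant of the 32 transcripts per length, moved less. It averaged 197 ± 3.8 TPM with PA and 167 ± 3.7 TPM with vehicle in HKO cells, and 191 ± 9.9 TPM with PA and 171 ± 3.2 TPM with vehicle in FLOX cells (SD, n = 4 each). It rose by 0.24 ± 0.035 in HKO cells (adjusted p = 6.83e-05) and by 0.15 ± 0.035 in FLOX cells (adjusted p = 0.00329). Median-ratio scaling ended the FLOX call (log2 fold change 0.052, adjusted p = 0.342). Mdm2, the p53 ubiquitin ligase, averaged 47.8 ± 2.2 TPM with PA and 37.9 ± 2.7 TPM with vehicle in HKO cells, and 47.8 ± 5.7 TPM with PA and 37.8 ± 2.6 TPM with vehicle in FLOX cells. It rose by 0.33 ± 0.077 in HKO cells (adjusted p = 0.00284) and 0.32 ± 0.077 in FLOX cells (adjusted p = 0.00423), where replicate 1 with PA (41.17 TPM) fell within the vehicle range. Ccng1, which encodes the p53-induced cyclin G1, rose by 0.23 ± 0.052 in HKO cells (adjusted p = 0.0023) and 0.21 ± 0.052 in FLOX cells (adjusted p = 0.0054).

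**Figure D3:**
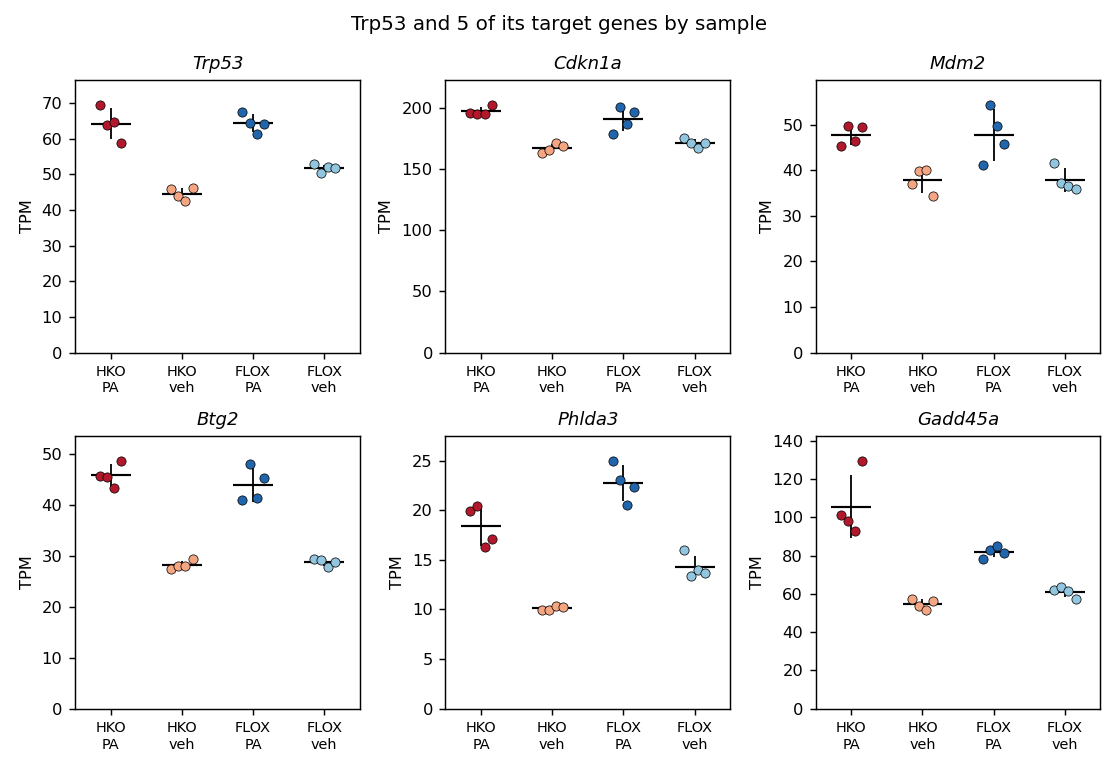
TPM of Trp53 and 5 of its target genes in each sample, by group (PA, palmitic acid; veh, vehicle). Points are samples in replicate order, horizontal lines group means and vertical lines the SD. Phlda3 is lower in HKO than in FLOX cells at both treatments, and Gadd45a with PA is higher in HKO cells, with replicate 4 at 129.54 TPM.

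Not every gene of the group rose. Gadd45b, a relative of Gadd45a induced by several stress pathways, measured 35.20, 37.13, 36.59 and 33.16 TPM in HKO cells with PA, against 41.92, 46.29, 43.88 and 45.54 TPM with vehicle. FLOX cells held 43.85, 39.23, 41.12 and 44.43 TPM with PA, against 51.89, 52.94, 52.35 and 58.14 TPM with vehicle. The PA samples lay below the vehicle samples throughout. The log2 fold change was -0.31 ± 0.053 in HKO cells (adjusted p = 2.1e-04) and -0.35 ± 0.053 in FLOX cells (adjusted p = 1.27e-04). Sesn1, a p53-induced stress protein that restrains the growth kinase mTORC1, averaged 4.26 TPM with PA and 5.64 TPM with vehicle in HKO cells, and 3.97 TPM with PA and 5.20 TPM with vehicle in FLOX cells. It fell by 0.33 in HKO cells (SE 0.088, adjusted p = 0.00625) and by 0.32 in FLOX cells (SE 0.088, adjusted p = 0.0102), and the FLOX call was lost without both FLOX libraries numbered 1 (adjusted p = 0.0525). Zmat3, an RNA-binding p53 target, was called in HKO cells (0.27 ± 0.093, adjusted p = 0.03) but under neither scaling, nor without replicate 1 (adjusted p = 0.0587) or 2 (0.109) with PA or replicate 1 (0.0968) or 4 (0.0517) with vehicle.

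Of 17 further p53 targets, all tested, 3 were higher and 1 lower with PA in each genotype. The higher calls were 17.6% of the list, below the share of all genes in both genotypes (29.4% in HKO cells and 23.0% in FLOX cells). Under median-ratio scaling 3 were higher and 5 lower in HKO cells, and 2 higher and 5 lower in FLOX cells. Trp53inp1, a p53-induced nuclear protein, averaged 47.3 TPM with PA and 27.3 TPM with vehicle in HKO cells, and 35.9 TPM with PA and 23.6 TPM with vehicle in FLOX cells (adjusted p = 1.35e-04 and 0.00243 for the HKO and FLOX rises). Aen, a p53-induced nuclease, rose by 0.52 ± 0.063 in HKO cells (adjusted p = 8.81e-06) and 0.42 ± 0.063 in FLOX cells (adjusted p = 9.18e-05). Perp, a desmosome component and p53 target, was the 1 that fell, by 0.25 in HKO cells and 0.23 in FLOX cells. Of 10 tested regulators of p53, only the deubiquitinase gene Usp7 and the acetyltransferase gene Kat5 were called, both higher in both genotypes. The Kat5 call in FLOX cells was lost in 7 alternatives, among them median-ratio scaling (adjusted p = 0.152), quantile normalization (0.149), and leaving out replicate 4 with PA (0.0799) or replicate 4 with vehicle (0.0635). The Usp7 rise was 0.39 ± 0.080 in HKO cells and 0.35 ± 0.080 in FLOX cells (adjusted p = 9.47e-04 and 0.00306).

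In the BCL2 family, 4 of 9 tested genes rose with PA in HKO cells and 1 of 9 in FLOX cells, with none lower. Those shares are 44.4% in HKO cells, beside 29.4% of all genes, and 11.1% in FLOX cells, beside 23.0%. Mcl1, a short-lived protein that protects mitochondria, rose in both. It measured 132.08, 134.54, 124.38 and 134.91 TPM in HKO cells with PA, against 85.42, 86.30, 93.71 and 98.03 TPM with vehicle. In FLOX cells it measured 108.21, 143.58, 122.84 and 116.13 TPM with PA, against 98.49, 96.19, 93.64 and 95.66 TPM with vehicle. No PA sample fell into the vehicle range, and the FLOX PA samples were the most spread. The log2 fold change was 0.53 ± 0.068 in HKO cells (adjusted p = 1.57e-05) and 0.34 ± 0.068 in FLOX cells (adjusted p = 0.00117). Bcl2l1 (BCL-XL), the other abundant protective member, averaged 116 TPM with PA and 114 TPM with vehicle in HKO cells, and 116 TPM with PA and 118 TPM with vehicle in FLOX cells. It was called lower in FLOX cells under median-ratio scaling alone (log2 fold change -0.12, adjusted p = 0.0412). Mcl1 stood at 1.13 times the level of Bcl2l1 with PA and 0.801 times with vehicle in HKO cells, and at 1.06 times with PA and 0.816 times with vehicle in FLOX cells.

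Of the pore formers, Bak1 averaged 59.8 TPM with PA and 46.3 TPM with vehicle in HKO cells and rose by 0.37 ± 0.077 (adjusted p = 0.00125). It averaged 53.1 TPM with PA and 48.4 TPM with vehicle in FLOX cells and was not called. Bax was the most abundant family member, with 146 TPM with PA and 138 TPM with vehicle in HKO cells and 160 TPM with PA and 149 TPM with vehicle in FLOX cells, and was called in neither. Without both FLOX libraries numbered 1, Bax was called higher with PA in HKO cells (log2 fold change 0.089, adjusted p = 0.0469) and lower in HKO than in FLOX cells with vehicle (-0.13, adjusted p = 0.029). Part of its reads could belong to the overlapping or similar gene Gm45808, which holds 8.51% of its 50-base stretches.

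The BH3-only members activate the pore formers or block the protectors. Bbc3 (PUMA) measured 10.25, 14.37, 10.20 and 11.13 TPM in HKO cells with PA, against 10.85, 7.95, 6.62 and 8.65 TPM with vehicle. Replicate 1 with vehicle lay inside the PA range. The HKO rise, 0.40 ± 0.14 (adjusted p = 0.0313), was lost in 10 alternatives, among them both scalings and leaving out replicate 2 (adjusted p = 0.11) or 4 (0.0505) with PA, or replicate 2 (0.0673), 3 (0.107) or 4 (0.0507) with vehicle. Bcl2l11 (BIM) was near the floor of the filter, at 1.04, 1.49, 0.80 and 1.39 TPM in HKO cells with PA, against 0.63, 0.77, 0.65 and 0.54 TPM with vehicle. These groups did not overlap, and the rise was 0.39 ± 0.13 (adjusted p = 0.0253), a value that the added 1 TPM compresses. That call was lost without replicate 2 (adjusted p = 0.0822) or 4 (0.0685) with PA, and without replicate 1 (0.0513) or 4 (0.0649) with vehicle. In FLOX cells Bcl2l11 averaged 1.12 TPM with PA and 1.07 TPM with vehicle, and Bbc3 8.56 TPM with PA and 7.98 TPM with vehicle, and neither was called. Bid, Bad and Bik were called in no comparison with all samples, with group means of 25.7 to 30.1 TPM, 37.6 to 44.1 TPM and 4.31 to 5.47 TPM. Bid was called higher with PA in HKO cells without both FLOX libraries numbered 1 (log2 fold change 0.14, adjusted p = 0.045).

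Both members below the filter belong here. Pmaip1 (NOXA), a BH3-only p53 target, measured 0.57, 0.44, 0.41 and 0.43 TPM in HKO cells with PA, against 0.86, 1.5, 0.94 and 0.75 TPM with vehicle. The FLOX samples measured 0.41, 0.35, 0.24 and 0.26 TPM with PA, against 0.71, 0.54, 0.42 and 0.56 TPM with vehicle. The PA samples were lower in both genotypes. With no filter Pmaip1 was called lower in HKO cells (log2 fold change -0.45 ± 0.098, adjusted p = 0.00461) and not in FLOX cells (adjusted p = 0.134). Bcl2, the founding protective member, stayed between 0.05 and 0.28 TPM in all 16 samples.

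**Figure D4:**
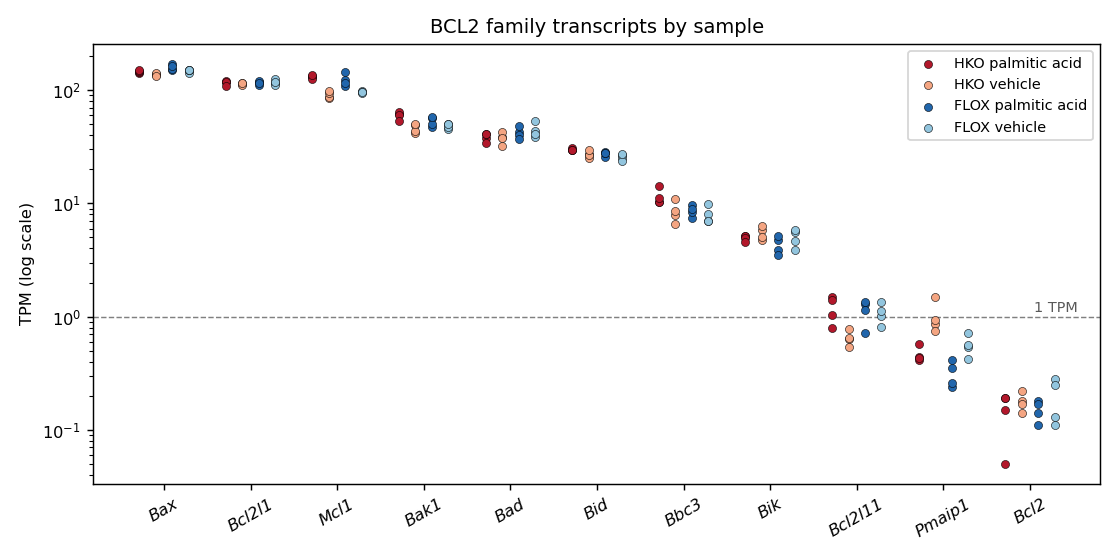
TPM on a log scale of the 11 BCL2 family genes in each sample, ordered by level, with HKO palmitic acid, HKO vehicle, FLOX palmitic acid and FLOX vehicle from left to right within each gene. Bax, Bcl2l1 and Mcl1 lie near or above 100 TPM, and Pmaip1 and Bcl2 lie mostly below the dashed line at 1 TPM.

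Among further family members, Bcl2l2 (BCL-W), a protective member, rose by 0.33 ± 0.10 in HKO cells (adjusted p = 0.0151) and by 0.51 ± 0.10 in FLOX cells (adjusted p = 0.0011). The HKO call was lost without replicate 2 with PA (0.0529) or replicate 1 with vehicle (0.0576). Bnip3, a mitochondrial protein of mitophagy with a BH3-like part, was the only other one of 5 called, lower in HKO cells (adjusted p = 0.0423, and 0.0502 to 0.117 with 10 single samples left out in turn). Bmf, Hrk and Bcl2l10 were below the filter.

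Among caspases and their regulators, 3 of 7 genes rose in each genotype and none fell. The share called higher over all genes was 29.4% in HKO cells and 23.0% in FLOX cells. Under both scalings 3 of the 7 were higher in HKO cells and 1 in FLOX cells. Cflar encodes c-FLIP, which blocks caspase-8 at death receptors. It measured 27.51, 31.86, 31.16 and 29.31 TPM in HKO cells with PA, against 19.19, 23.04, 18.36 and 19.30 TPM with vehicle. FLOX cells held 25.42, 39.96, 37.53 and 39.02 TPM with PA, against 21.89, 17.38, 18.32 and 20.95 TPM with vehicle. Replicate 1 of FLOX with PA stood well below the other 3 and still above all vehicle samples. The rise was 0.56 ± 0.12 in HKO cells (adjusted p = 0.00147) and 0.81 ± 0.12 in FLOX cells (adjusted p = 9.38e-05), or 1.01 in FLOX cells without both FLOX libraries numbered 1.

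Casp8, the initiator caspase of death receptors, measured 17.51, 16.69, 16.92 and 16.19 TPM in HKO cells with PA, against 13.34, 11.67, 12.64 and 14.27 TPM with vehicle. In FLOX cells it measured 19.11, 17.75, 21.16 and 18.01 TPM with PA, against 16.17, 15.99, 16.38 and 15.84 TPM with vehicle. PA samples lay above vehicle samples in both genotypes. Casp8 rose by 0.35 ± 0.063 in HKO cells (adjusted p = 3.3e-04) and by 0.22 ± 0.063 in FLOX cells (adjusted p = 0.0124), and the FLOX call was lost under median-ratio scaling (adjusted p = 0.234) and quantile normalization (0.227). Part of the counted sequence is not unique: 7.04% of the 50-base stretches of Cflar, 5.80% of those of Tnfrsf10b and 4.37% of those of Casp8 occur in other annotated genes. Cflar stood at 1.78 times the level of Casp8 with PA and 1.55 times with vehicle in HKO cells, and at 1.88 times with PA and 1.22 times with vehicle in FLOX cells.

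Apaf1, the scaffold of the apoptosome and a p53 target, was low. It measured 2.72, 2.83, 2.95 and 4.41 TPM in HKO cells with PA, against 1.54, 1.70, 1.85 and 2.36 TPM with vehicle. The FLOX samples measured 3.83, 4.32, 3.72 and 2.97 TPM with PA, against 2.16, 2.67, 2.81 and 2.06 TPM with vehicle. The groups did not overlap, and replicate 4 was the highest of both HKO groups. The log2 fold change was 0.55 ± 0.14 in HKO cells (adjusted p = 0.00384) and 0.46 ± 0.14 in FLOX cells (adjusted p = 0.0158), where median-ratio scaling (adjusted p = 0.0548), quantile normalization (0.0706), and leaving out replicate 2 with PA (0.0537), replicate 4 with vehicle (0.0505) or both FLOX libraries numbered 1 (0.0561) ended the call.

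The remaining genes were called in no comparison with all samples. Without both FLOX libraries numbered 1, Xiap was called higher with PA in FLOX cells (log2 fold change 0.23, adjusted p = 0.0423, against 0.055 with them), and Casp9 was called higher in HKO cells (adjusted p = 0.0472). Casp9, the initiator caspase bound by Apaf1, averaged 8.28 TPM with PA and 6.91 TPM with vehicle in HKO cells, and 8.10 TPM with PA and 7.36 TPM with vehicle in FLOX cells. Group means ran from 12.8 to 14.96 TPM for Casp6, an executioner caspase, from 29.9 to 33.3 TPM for Diablo, which frees caspases from their inhibitors, and from 11.3 to 12.7 TPM for Xiap, such an inhibitor. Diablo shares 17.6% of its 50-base stretches with Gm49027, so its level is uncertain. Of 15 further caspase and mitochondrial genes, 2 were higher and 2 lower in HKO cells, and 1 higher and 3 lower in FLOX cells. The higher calls were 13.3% of the list in HKO cells and 6.67% in FLOX cells, below the share of all genes. Under median-ratio scaling 1 was higher and 5 lower in HKO cells, and 0 higher and 4 lower in FLOX cells. Birc3, an inhibitor of apoptosis, rose in HKO cells by 0.38 ± 0.081 (adjusted p = 0.00134).

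Other inducers of these genes were set beside them. Ddit3 measured 40.78, 34.35, 29.74 and 48.94 TPM in HKO cells with PA, against 13.32, 11.39, 13.47 and 13.87 TPM with vehicle. FLOX cells held 27.23, 26.01, 26.64 and 27.38 TPM with PA, against 12.53, 14.04, 11.75 and 10.64 TPM with vehicle. All HKO samples with PA lay above all FLOX samples with PA. Ddit3 rose by 1.47 ± 0.12 in HKO cells (adjusted p = 1.01e-07) and by 1.08 ± 0.12 in FLOX cells (adjusted p = 4.07e-06). Atf4, the factor upstream of Ddit3 in the integrated stress response, was called higher in HKO cells (0.15 ± 0.031, adjusted p = 8.28e-04) but not under median-ratio scaling. Trib3, an ATF4 and CHOP target, rose by 0.19 ± 0.061 in HKO cells (adjusted p = 0.0169) and fell by 0.22 in FLOX cells (SE 0.061, adjusted p = 0.0121). Its HKO rise was 0.074 under median-ratio scaling (adjusted p = 0.466) and 0.094 under quantile normalization (0.294), and the call was also lost without replicate 4 with PA (0.0572) or replicate 1 with vehicle (0.0574). The p53 relatives Trp63 and Trp73 were below the filter. Of 7 tested cell cycle genes, 2 were higher and 2 lower with PA in HKO cells, beside 29.4% and 13.1% of all genes. In FLOX cells 1 was higher and 2 were lower, beside 23.0% and 11.5%. Under median-ratio scaling 0 were higher and 2 lower in each genotype. Cyclin D1 (Ccnd1) fell by 0.90 in HKO cells (adjusted p = 6.84e-06) and by 0.92 in FLOX cells (adjusted p = 8.37e-06). Ccne1 was among the higher calls in HKO cells, and Pcna was the higher call in FLOX cells. The 4 cell cycle genes that mark dividing cells, Mki67, Top2a, Ccnb1 and Ccna2, were below the filter.

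The second question was how the deletion of Smpd3 bore on these genes. With vehicle, 5 of 30 genes were lower in HKO than in FLOX cells and none was higher: Phlda3, Casp8, Gadd45b, Trp53 and Ccng1. Of all tested genes 7.56% were called lower and 4.11% higher. Phlda3 differed by -0.45 ± 0.077 (adjusted p = 0.00112), Casp8 by -0.29 ± 0.063 (adjusted p = 0.00645), Gadd45b by -0.27 ± 0.053 (adjusted p = 0.00332), Trp53 by -0.21 ± 0.048 (adjusted p = 0.00924) and Ccng1 by -0.18 ± 0.052 (adjusted p = 0.0338). In each of the 5, every HKO vehicle sample lay below every FLOX vehicle sample. The 5 were called from these same samples, so this separation is no separate support. The share of all genes so separated was not counted. The Trp53 call was lost under median-ratio scaling (adjusted p = 0.07) and quantile normalization (0.0613), and the Ccng1 call under quantile normalization (0.0643). The Ccng1 call was also lost without replicate 1, 3 or 4 of HKO with vehicle (adjusted p = 0.0591, 0.086 and 0.0934) or replicate 1, 2 or 4 of FLOX with vehicle (0.0892, 0.0628 and 0.0856). Among all genes, the share of higher calls was 35.2%, and 53.9% under median-ratio scaling. Of the 17 further p53 targets, Aen was lower by 0.23 (SE 0.063, adjusted p = 0.0271) and Ei24 by 0.15 (SE 0.040, adjusted p = 0.0279), and each of these calls was lost on leaving out replicate 1 of FLOX (adjusted p = 0.0659 for Aen and 0.0771 for Ei24) or other single vehicle samples.

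With PA, 1 of 30 genes was higher in HKO than in FLOX cells and 2 were lower, beside 4.24% of all genes higher and 5.50% lower. Gadd45a was higher by 0.35 ± 0.078 (adjusted p = 0.00911). Without replicate 4 of HKO with PA the difference was 0.24 (adjusted p = 0.00548), and in a fit of these 2 groups alone it was not called (adjusted p = 0.0632). Phlda3 was lower by 0.29 (SE 0.077, adjusted p = 0.0256) and Gadd45b by 0.24 (SE 0.053, adjusted p = 0.00866), both as with vehicle. The Phlda3 call was lost in 6 alternatives, among them leaving out replicate 3 (adjusted p = 0.0807) or 4 (0.0724) of HKO with PA or replicate 1 (0.0707), 2 (0.0578) or 4 (0.0521) of FLOX with PA. Without both FLOX libraries numbered 1, Cflar (log2 difference -0.37, adjusted p = 0.0102) and Ccng1 (-0.21, adjusted p = 0.00873) were also lower. With all samples, Ccng1 was called lower under median-ratio scaling (-0.16, adjusted p = 0.0159) and quantile normalization (-0.15, adjusted p = 0.0323) too. Of 6 tested genes among the other inducers, 3 were higher (Ddit3, Trib3 and Atf4) and 0 lower. Ddit3 was higher by 0.48 ± 0.12 (adjusted p = 0.0161), a call lost in a fit of these 2 groups alone (adjusted p = 0.0633) and without replicate 1 of HKO with PA (0.0526). Trib3 and Atf4 kept the call in all 26 alternatives. Over these the log2 difference ran from 0.34 to 0.43 for Trib3 and from 0.18 to 0.24 for Atf4.

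Outside the 32 genes, Bnip3 differed most between genotypes among the listed pathway genes. It measured 166.45, 141.17, 160.94 and 197.20 TPM in HKO cells with PA, against 47.95, 99.33, 73.09 and 107.58 TPM in FLOX cells with PA. With vehicle it measured 223.25, 243.73, 231.66 and 222.13 TPM in HKO cells, against 101.58, 100.43, 98.46 and 91.93 TPM in FLOX cells. The genotypes did not overlap at either treatment, and the FLOX samples with PA were widely spread, with replicate 1 the lowest. Bnip3 was higher in HKO cells by 1.07 ± 0.18 with PA (adjusted p = 8.9e-04) and by 1.22 ± 0.18 with vehicle (adjusted p = 2.57e-04). Its paralog Bnip3l was higher by 0.74 ± 0.11 with PA (adjusted p = 4.3e-04) and by 0.63 ± 0.11 with vehicle (adjusted p = 0.00166). Of 7 tested cell cycle genes, 5 were lower in HKO cells with PA and 6 with vehicle, beside 5.50% and 7.56% of all genes. With vehicle, 5 were lower under median-ratio scaling and 4 under quantile normalization. Among the cell cycle genes, Rrm2, a ribonucleotide reductase subunit, was lower by 0.47 with PA (adjusted p = 1.96e-04) and by 0.48 with vehicle (adjusted p = 1.73e-04).

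Marker sums of some other cell types differed between genotypes too. Cholangiocyte markers, 4 of 5 tested and mainly Spp1, summed to 338 to 386 TPM in HKO cells with PA and 298 to 324 TPM with vehicle, against 197 to 242 TPM in FLOX cells with PA and 180 to 191 TPM with vehicle. Macrophage markers, 1 of 7 tested, summed to 81.5 to 108 TPM in HKO cells with PA and 60.7 to 70.3 TPM with vehicle, against 56.1 to 68.6 TPM in FLOX cells with PA and 48.9 to 55.5 TPM with vehicle. That 1 was Cd68, and the defining macrophage markers Adgre1, Clec4f and Marco did not exceed 0.47 TPM in any sample. Epcam, a cholangiocyte marker, was below the filter. Endothelial and erythroid marker sums overlapped between genotypes at both treatments. With vehicle, endothelial markers summed to 4.61 to 5.2 TPM in HKO cells and 3.98 to 5.17 TPM in FLOX cells. Erythroid markers, 1 of 3 tested, summed to 20.95 to 24.2 TPM in HKO cells and 22.21 to 23.75 TPM in FLOX cells with vehicle. That 1 was Alas2, and the globin genes Hba-a1 and Hbb-bs were below the filter. The part of Spp1 and Cd68 in the genotype differences was not tested.

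Whether PA acted differently in the 2 genotypes was tested as an interaction, the PA response in HKO cells minus that in FLOX cells. None of the 30 genes was called by limma, and 3 had an unadjusted p below 0.05: Trp53, Gadd45a and Bak1. Among all genes 0.152% were called higher and 0.0422% lower. The interaction was 0.50 ± 0.11 for Gadd45a (adjusted p = 0.0932), 0.20 ± 0.068 for Trp53 (adjusted p = 0.408) and 0.24 ± 0.11 for Bak1 (adjusted p = 0.651). For Gadd45a it passed the threshold without replicate 4 of HKO with PA, the highest sample, at a smaller size (0.40, adjusted p = 0.0308). The signed difference was above 0 in 23 of the 30 genes (21 under median-ratio scaling, and 20 under quantile normalization or without both FLOX libraries numbered 1). Its median was 0.082, beside a median of 0.015 over all genes. The share of all genes with a difference above 0 was not counted, so the count of 23 has no background beside it. The 5 genes called with PA in HKO cells and not in FLOX cells (Bak1, Bbc3, Bcl2l11, Fas and Zmat3) are therefore not shown to respond differently. Atf4, outside the 32, was the only gene of the further lists called (0.23 ± 0.044, adjusted p = 0.0485), and it lost the call in 19 of 25 alternatives.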

How the data were processed

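Total RNA of 16 samples was sequenced after a stranded total RNA library kit, per the labels' protocols. The deposited table holds TPM per mouse gene ID, made by the authors with RSEM 1.3.3, per the submitters' processing notes. Those notes name the human build GRCh38.p13, which cannot be that of mouse IDs. No source used here names the aligner or annotation. TPM shares 1 total per library, so a shift in abundant transcripts moves the rest, and read depth is unknown.

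Symbols were matched to IDs for 52083 of 55416 rows. Where 2 IDs carried the symbol Ddit3, the ID listed in RefSeq was taken first, and otherwise the 1 with values above 0. Genes with at least 1 TPM in at least 4 samples were kept. Log2(TPM + 1) was fitted with limma 3.58.1 in R 4.3.3, with a mean per group over all 16 samples, a mean-variance trend, two-sided tests and Benjamini-Hochberg adjustment over 11858 genes at 0.05. The script was tested on simulated data. The 5 comparisons share samples and are not independent. Interaction means the difference between both PA responses.

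Per-sample values are given for up to 8 members past the threshold with the largest change in each PA comparison, up to 4 in each other comparison, Trp53 and members below the filter; other genes named beside them, Mdm2, Fas, Bbc3, Bcl2l11, Bnip3 and Ddit3 among them, were given values after the results were seen. Of each further list, up to 3 called genes per comparison could be named. Members and lists were chosen with earlier results of these data known. Alternatives were another pseudocount (0.1), other filters, 2 scalings, no trend, fits of the compared groups only, a replicate block, sample weights, each sample left out and both FLOX libraries numbered 1 left out. Shared 50-base stretches were counted in GENCODE vM21 transcripts, which may differ from the authors' annotation, and promoters come from RefSeq.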

Additional observations from a re-analysis of the deposited data

Results flagged for a closer look

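Among 128 sets of 4 samples (32 genes in 4 groups), 6 held 1 sample that stood apart from the other 3 by Dixon's test, and chance alone flags about 1 in 20. Cflar was 25.42 TPM in replicate 1 of FLOX with PA, against 37.53 to 39.96 TPM in the other 3. Bid was 25.51 TPM in the same sample, against 27.98 to 28.23 TPM, and 31.11 TPM in replicate 2 of HKO with PA, against 29.69 to 29.83 TPM. Replicate 4 of HKO with PA was high for Apaf1 (4.41 TPM, against 2.72 to 2.95 TPM) and for Cdkn1a (202.95 TPM, against 194.8 to 195.9 TPM). Gadd45b was 58.14 TPM in replicate 4 of FLOX with vehicle, against 51.89 to 52.94 TPM in the other 3. The Atf4 response to PA differed between HKO and FLOX cells in the interaction test (0.23 on the log2 scale, adjusted p = 0.0485), a call lost in 19 of 25 alternatives (adjusted p of 0.0187 to 0.333 over them).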

How the results depend on the processing

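Over the 30 tested members, all 5 comparisons and the alternatives, 3774 of 3860 outcomes (higher, lower or not called) were the same. Calls were lost in 51, gained in 35 (in 19 pairs of gene and comparison) and changed direction in none. Most pairs of gene and comparison were not called in the main fit, so the unchanged outcomes are mostly genes that stayed uncalled. Among 109 gene results followed singly, nearly all of them calls, 220 of 2821 values lost the call and none reversed. HKO against FLOX with vehicle had 3 called members under quantile normalization, against 5, and HKO against FLOX with PA had 5 with sample weights and 5 without both FLOX libraries numbered 1, against 3. The interaction had 1 without replicate 4 of HKO with PA, against 0. Leaving out 1 sample at a time gave 18 to 23 called members for PA in HKO (24 with sample weights or without both FLOX libraries numbered 1, and 18 under either scaling, against 21), 15 to 16 for PA in FLOX, 4 to 6 for HKO against FLOX with vehicle, 2 to 4 with PA and 0 to 1 for the interaction.

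Over all genes, the interaction called 18 higher and 5 lower, against 3 and 0 with the replicate block, 4 and 1 without the trend, 5 and 4 under median-ratio scaling and 29 and 11 with sample weights. HKO against FLOX with PA called 503 higher and 652 lower, against 319 and 350 in a fit of those groups alone. The share of higher calls for HKO against FLOX with PA was 43.5%, and 53.3% under median-ratio scaling, and for the interaction 78.3% and 55.6%.

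Same-numbered samples did not deviate together (correlations of -0.15 to 0.036 in FLOX and -0.026 to 0.086 in HKO), so the numbers were not treated as pairing, and 1 of 8 FLOX and 4 of 8 HKO samples correlated best with their own number. With the replicate block, PA called 20 members in HKO and 16 in FLOX, HKO against FLOX 4 with vehicle and 3 with PA, and the interaction 0. The block ended the calls of Bbc3 in HKO (adjusted p = 0.073), Sesn1 in FLOX (0.0598) and Ccng1 with vehicle (0.0589), and Fas was called lower in FLOX (0.0224). The cause of these changes was not tested. TPM gives no depth, so no counting error stands behind low genes such as Bcl2l11.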
